A study of Homo sapiens with 3 samples.

Results

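Integrin subunits, CD44 and CD47 were followed at the level of single exons. The 8 genes were taken by symbol from both deposited tables of exon-skipping events: the integrin genes ITGA3, ITGA6, ITGA7, ITGAV, ITGB1 and ITGB5, and CD44 and CD47. They hold 60 of the 39434 exons listed in the tables, in 178 of 83220 rows, and are 8 of 11271 genes. The cells were BJ fibroblasts, an established cell line from human foreskin, harvested 8 days after viral expression of OCT4, SOX2, KLF4 and MYC (OSKM) had been induced. All 3 samples carried these reprogramming factors. Of the 3 samples, 1 (genotype WT) received a non-targeting siRNA, 1 received an siRNA against SMAD3, a transcription factor of TGF-beta signalling, and 1 an siRNA against the splicing factor SFRS11 (now SRSF11). Each group has 1 library, so no difference has a replicate check.

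The libraries are coded RS2, RS3 and a comparator that both tables share. No label ties a code to an siRNA, so the codes are kept. Each row gives 1 skipped exon with a difference in inclusion level, on a scale from -1 to 1, a p-value and a false discovery rate (FDR). Inclusion level is the fraction of transcripts that include the exon rather than skip it, and a positive difference is read as higher inclusion in RS2 or RS3 than in the comparator. An event was called when the deposited FDR was under 0.05 and the difference was at least 0.1 in size. These deposited tests compare libraries, not conditions, and the read depth behind them is unknown. The tables list no flanking exons, so an exon that can be skipped between different neighbours fills several rows.

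The tables do not measure expression, but a gene with a listed event had reads across that region. Of 12 fibroblast markers 11 were listed in each table, COL1A1, COL3A1 and VIM among them. Of 4 blood markers 0 were listed in either table. Of 4 muscle markers, DES was listed in RS2, and CKM and DES in RS3. Epithelial markers were listed for 4 of 8 genes in RS2 and 5 of 8 in RS3, and pluripotency markers for 2 and 3 of 6.

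Integrins are pairs of an alpha and a beta subunit that cross the membrane and tie the matrix outside to actin inside. ITGA3, ITGA6 and ITGA7 encode laminin-binding alpha subunits that pair with the beta subunit of ITGB1. ITGAV encodes an alpha subunit that recognises the RGD motif of fibronectin and vitronectin, and ITGB5 encodes one of its beta partners. CD44 is the main cell-surface receptor for hyaluronan, and a run of variant exons in the middle of its gene, v2 to v10, lengthens its extracellular stem when included. CD47, a receptor for thrombospondin and SIRP-alpha, associates with integrins, and its short tail inside the cell is alternatively spliced. Alternative exons in integrin tails, such as the A and B tails of ITGA6, are a known part of how cell types differ in adhesion receptors.

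The exon on which the ITGB5 result rests is shown first because it is the 1 called exon of these genes. It lies on the minus strand of chromosome 3 (hg19), from 124536468 to 124536557, and is 90 bases long. Sequences here are those of the exon of the same gene and length in GENCODE release 29 transcripts, in transcript sense, since coordinates of that annotation are of another build. Of the 60 exons, 44 had such a match.
ITGB5 exon of 90 bases: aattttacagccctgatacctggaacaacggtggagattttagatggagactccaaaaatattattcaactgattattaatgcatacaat

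Next are CD44 exons from the variant region on the plus strand of chromosome 11. The v3, v5 and v7 exons below are ones that the tables also list in a shorter form, and the capitals mark the bases that the shorter form lacks. The v8 exon has the smallest RS3 p-value in CD44 and is shown without capitals.
CD44 v3, chr11:35219668-35219793: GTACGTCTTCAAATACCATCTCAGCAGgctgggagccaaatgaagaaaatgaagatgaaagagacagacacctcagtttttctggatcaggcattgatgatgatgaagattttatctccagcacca
CD44 v5, chr11:35223215-35223334: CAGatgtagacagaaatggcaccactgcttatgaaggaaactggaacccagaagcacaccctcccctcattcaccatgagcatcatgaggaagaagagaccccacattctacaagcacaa
CD44 v7, chr11:35227659-35227790: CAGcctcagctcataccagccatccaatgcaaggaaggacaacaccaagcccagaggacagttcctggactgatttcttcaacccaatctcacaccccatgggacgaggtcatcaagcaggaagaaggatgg
CD44 v8, chr11:35229652-35229753: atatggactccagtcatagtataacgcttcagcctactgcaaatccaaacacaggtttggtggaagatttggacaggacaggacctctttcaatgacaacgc

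The last set holds the ITGA6 exons with differences of at least 0.1 and a short CD47 exon, which had an RS2 difference of that size. The ITGA6 exon of 130 bases is printed up to its annotated stop codon, which stands in capitals, and the remaining sequences have no capitals.
ITGA6, chr2:173354213-173354386, plus strand: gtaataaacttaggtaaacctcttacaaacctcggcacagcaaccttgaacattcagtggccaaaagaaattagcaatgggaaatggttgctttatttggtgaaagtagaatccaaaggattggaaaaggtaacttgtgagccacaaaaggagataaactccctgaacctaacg
ITGA6, exon at chr2:173366500-173366629, plus strand: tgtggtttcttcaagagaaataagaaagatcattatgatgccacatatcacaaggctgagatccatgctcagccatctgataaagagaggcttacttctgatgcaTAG
CD47, chr3:107770786-107770817, minus strand: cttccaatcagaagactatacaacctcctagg

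Across the 8 genes, 0 of 84 rows were called in RS2 and 1 of 94 in RS3 (1.06%). Over all rows, 0.0712% were called in RS2 and 0.967% in RS3 (0.736% with lower inclusion), so the members' share in RS3 was close to that of the table. Counted by exon, 0 of 54 member exons were called in RS2 (0.08% of all exons) and 1 of 55 in RS3 (1.13% of all exons). At an unadjusted p under 0.05, 6 member rows passed in RS2 (7.14%, against 4.52% of all rows), 3 lower and 3 higher, where 2.5% of all rows passed with lower inclusion. In RS3, 8 passed (8.51%, against 7.61% of all rows) and all 8 were lower. Over all RS3 rows 5.2% passed with lower inclusion, which is 2211 of the 3237 that passed. With a difference of at least 0.1 as well, 4 of 84 member rows were left in RS2, where 2.21% of all rows were left. In RS3, 4 of 94 were left, where 3.98% of all rows were left. The 8 member rows with an unadjusted p under 0.05 in RS3 came from 6 exons of 4 genes and are not independent of each other.

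The median member difference was 0.001 in RS2 and -0.001 in RS3, beside 0 and -0.001 over all rows. Differences of at least 0.1 in size were listed in 21 of 84 member rows in RS2 (25.0%, against 19.2% of all rows) and 19 of 94 in RS3 (20.2%, against 21.2%). Of these, 17 in RS2 and 15 in RS3 had an unadjusted p of 0.05 or more. Over all rows this held for 6933 of the 7834 differences of that size in RS2 and for 7303 of 8996 in RS3. A large listed difference was thus mostly without a small p-value, in these genes as over all rows.

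**Figure D1:**
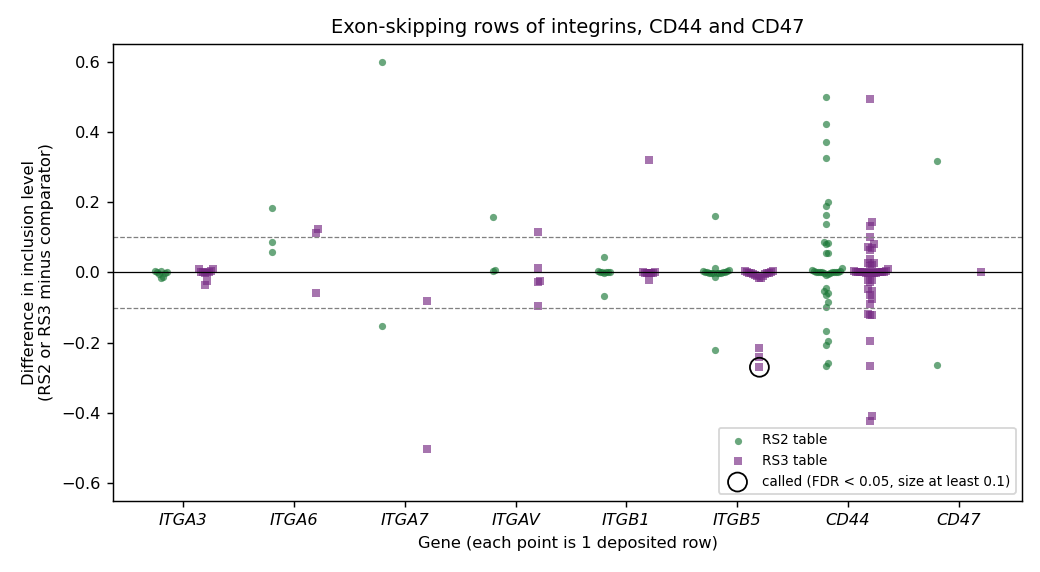
Difference in inclusion level (vertical axis, from -1 to 1 in principle) for every deposited row of the 8 genes, RS2 as circles and RS3 as squares, with dashed lines at 0.1 and -0.1. The single called row, ringed, is the ITGB5 row at -0.270 in RS3, while ITGA3 rows stay between -0.035 and 0.009 in both tables.

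**Figure D2:**
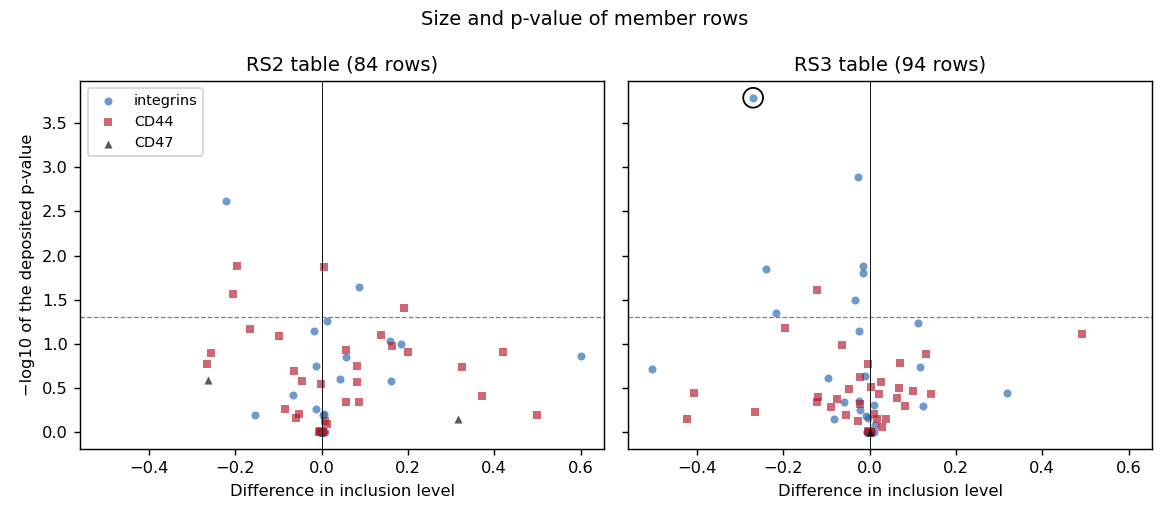
Size of each member row's difference (horizontal axis) against −log10 of the deposited p-value (vertical axis), by table, with a dashed line at an unadjusted p of 0.05 and the called row ringed. The widest differences, such as 0.6 in RS2 and -0.504 in RS3, both in ITGA7, lie below the dashed line.

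The beta subunit gene ITGB5 held the called exon. The 90-base exon is exon 8 of 15 in the annotated transcript, covers codons 347 to 376 without a stop, and its length is a multiple of 3. In the annotation, 2 coding transcripts of ITGB5 hold this exon and 2 span it without it. Inclusion of this exon fell by 0.270 in RS3 in the authors' deposited table, with a p-value of 0.000163 and an FDR of 0.0146. The other 3 RS3 rows of the same exon in the authors' deposited table were -0.240 (FDR 0.344), -0.216 (FDR 0.628) and -0.009 (FDR 1). All 4 RS3 rows were thus below 0 and 3 of them past -0.1, but only 1 was called. The call is lost at an FDR under 0.01. In bulk RNA, a different mix of cells and a change of splicing within cells cannot be told apart.

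In RS2 the same ITGB5 exon had 3 rows, and none was called. They stood at -0.221 (p 0.00240, FDR 0.393), 0.161 (p 0.267, FDR 1) and -0.003 (p 1, FDR 1) in the authors' deposited table. The RS2 row at -0.221 had the smallest p-value of all member rows in that table. Rows of the 2 tables cannot be paired without flanking exons, and the tables share the comparator, so these values are set side by side only.

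The remaining ITGB5 exons differed little. The 5 RS3 rows of ITGB5 with an unadjusted p under 0.05 were all lower and came from 3 exons that are consecutive in the transcript, exons 6, 7 and 8. The exon just upstream of the called one, 96 bases long (124538586 to 124538681), had its smallest p at -0.016 in RS3 (p 0.0132, FDR 0.332) in the authors' deposited table. Exon 6, of 162 bases (124540160 to 124540321), likewise stood at -0.016 in RS3 (p 0.0157, FDR 0.363) in the authors' deposited table. In RS2 the rows of exons 6 and 7 lay between -0.001 and 0.012 in the authors' deposited table. The 135-base exon that follows the called one ranged from -0.011 to 0 in RS3 and from -0.013 to 0 in RS2 in the authors' deposited table.

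The 90-base exon also had the lowest GC content among the 11 ITGB5 exons with a sequence, 33.3%, with the next at 41.7% and a median of 54.2%. Over all 44 exons with a sequence the median was 48.1% and the next lowest value was 35.5%. This is a description of the sequences and was not tested.

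**Figure D3:**
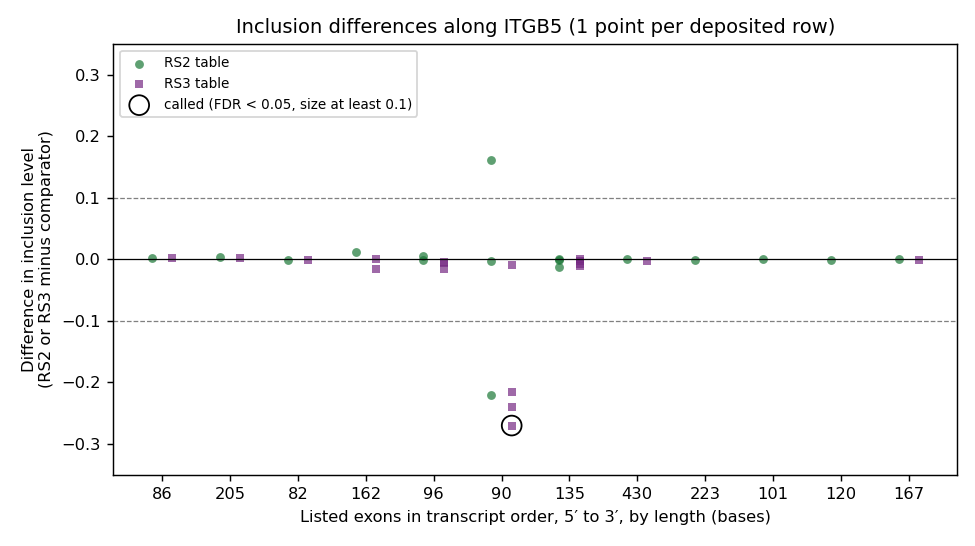
Difference in inclusion level for each deposited row of ITGB5, with the 12 listed exons in transcript order and named by length in bases, RS2 as circles and RS3 as squares. Rows past 0.1 in size occur only at the 90-base exon, where RS3 rows run from -0.270 (ringed, called) to -0.009 and RS2 rows from -0.221 to 0.161.

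ITGB1, the beta subunit shared by most laminin and collagen receptors, had 0 called rows among 9 in each table. The smallest unadjusted p was 0.248 in RS2 and 0.357 in RS3 in the authors' deposited table. Its 81-base exon (chromosome 10, 33195991 to 33196071), which by its length and place is the exon of the muscle tail beta 1D, stood at -0.003 in both tables in the authors' deposited table. The 116-base exon next to it (33195393 to 33195508) was at 0.003 in RS2 and -0.003 for RS3 in the authors' deposited table. The largest ITGB1 difference in RS3 was 0.319 (p 0.357, FDR 1), at an 84-base exon that is noncoding in the annotation (33240603 to 33240686), in the authors' deposited table. That exon was at 0 in RS2 (p 1) in the authors' deposited table. The largest RS2 value was -0.067 (p 0.383), at a 217-base exon (33242521 to 33242737) that is also noncoding, and the authors' deposited table lists 0 for the same exon in RS3.

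Among the laminin-binding alpha subunits, ITGA6 had 3 listed exons, and none was called. Its 130-base exon (chromosome 2, 173366500 to 173366629), exon 25 of 26, holds a stop codon and so ends the protein in the A tail when included. Its difference was 0.183 in RS2 (p 0.101, FDR 1) and 0.123 in RS3 (p 0.503, FDR 1) in the authors' deposited table. The 174-base exon (173354213 to 173354386) keeps the reading frame and stood at 0.086 in RS2 (p 0.0229, FDR 0.951) and 0.113 in RS3 (p 0.0582, FDR 0.700) in the authors' deposited table. Both exons had positive values in both tables, none of which passed the threshold. The 132-base exon (173335702 to 173335833) was at 0.057 in RS2 and -0.059 in RS3 in the authors' deposited table.

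ITGA7 had the widest differences of the 8 genes and no small p-value. Its 132-base and 120-base exons lie next to each other in the extracellular part, where ITGA7 is known for a mutually exclusive pair named X1 and X2. The 120-base exon (chromosome 12, 56093654 to 56093773) stood at 0.600 in RS2 (p 0.136, FDR 1) and -0.082 in RS3 (p 0.712, FDR 1) in the authors' deposited table. For the 132-base exon (56094046 to 56094177) the authors' deposited table gave -0.154 in RS2 (p 0.644, FDR 1) and -0.504 in RS3 (p 0.194, FDR 0.996). Neither exon passed the threshold in either table.

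ITGA3, a laminin receptor subunit, was flat by comparison. Its 8 exons spanned -0.017 to 0.004 in RS2, and -0.035 to 0.009 for RS3, in the authors' deposited table. The lowest RS3 value, -0.035 at a 208-base exon (chromosome 17, 48148675 to 48148882), had a p of 0.0320 and an FDR of 0.537 in the authors' deposited table, and the other RS3 row of that exon was 0.001. The lowest RS2 value, -0.017 at a 148-base exon (48154338 to 48154485), had a p of 0.0715 in the authors' deposited table. The 142-base exon that holds a stop codon of ITGA3 (48165589 to 48165730), exon 25 of 26, was at -0.004 in RS2 and 0.002 in RS3 in the authors' deposited table.

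ITGAV, the RGD-binding alpha subunit, had the smallest FDR after ITGB5, but neither that FDR nor the size of the difference met the limit for a call. A 114-base exon (chromosome 2, 187540331 to 187540444) stood at -0.027 in RS3 with a p of 0.00129 and an FDR of 0.071, and at 0.003 in RS2 (p 1), in the authors' deposited table. The 108-base exon that the tables list next (187540547 to 187540654) had positive values in both, 0.159 in RS2 (p 0.0935, FDR 1) and 0.116 in RS3 (p 0.184, FDR 0.982), in the authors' deposited table. The other 3 exons lay between -0.097 and 0.013 in the authors' deposited table, 2 of them listed in RS3 only.

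CD44 filled more rows than the other members, 40 in RS2 and 46 in RS3, and had 0 called rows. Its listed exons split by place. By order and length, 13 of the 19 exon forms belong to the variant exons v2 to v10 and 6 to the constant parts on either side. In the constant parts, which hold the hyaluronan-binding head and the membrane-spanning region, differences spanned -0.001 to 0.086 in RS2, and -0.002 to 0.004 in RS3, in the authors' deposited table. In the variant region they ranged from -0.266 to 0.5 in RS2 and from -0.423 to 0.493 in RS3 in the authors' deposited table. Differences of at least 0.1 in size were listed in 13 of 33 variant rows in RS2 (39.4%) and 11 of 38 in RS3 (28.9%), and in 0 of 7 and 0 of 8 constant rows. Over all rows the shares were 19.2% in RS2 and 21.2% in RS3. Median differences in the variant region were near 0, at 0.001 in RS2 and -0.0005 in RS3, with 14 rows lower and 17 higher in RS2, and 19 and 18 in RS3. The wide spread thus had no common direction.

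The variant exons with a small p-value were v3, v6 and v10 in RS2 and v8 in RS3. Exon v6 (35226059 to 35226187), a variant studied in metastasis and growth factor signalling, had an RS2 row at -0.195 (p 0.0132, FDR 0.801) in the authors' deposited table. Its 6 RS2 rows ran from -0.195 to 0.500, with a median of -0.062, and its 4 RS3 rows from -0.022 to 0.063, in the authors' deposited table. The 126-base form of exon v3, which carries the attachment site for heparan sulfate chains, had an RS2 row at -0.206 (p 0.0275, FDR 0.977) in the authors' deposited table. The other RS2 rows of that form were 0, 0.012 and 0.056, and its RS3 rows ran from -0.048 to 0.101, in the authors' deposited table. The 99-base form of v3 stood at 0.421 in RS2 (p 0.124). A single RS2 row thus carried each of the small p-values of v6 and v3.

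Exon v10 (35232793 to 35232996) had 2 RS2 rows with a p under 0.05 in the authors' deposited table, one at 0.005 (p 0.0133, FDR 0.804) and one at 0.190 (p 0.0394, FDR 1). Its remaining RS2 rows in the authors' deposited table were 0.164, 0.137 and -0.004, and its 4 RS3 rows lay between -0.090 and -0.003. Exon v8 had the only CD44 row with a p under 0.05 in RS3, at -0.121 (p 0.0244, FDR 0.463) in the authors' deposited table. That row is of the 102-base form of v8. The 6 rows of this form ran from -0.196 to 0.082 in RS3 (median -0.091). In RS2 its 6 rows ran from -0.257 to 0.081 (median -0.072), in the authors' deposited table. The v8 rows were of both signs in each table.

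The largest CD44 values had no unadjusted p under 0.05. They were 0.500 at v6 in RS2 (p 0.643) and 0.493 at v9 in RS3 (p 0.0783, FDR 0.780), and -0.423 at v5 in RS3 (p 0.708), in the authors' deposited table. The v9 exon (35231512 to 35231601) also had an RS2 row at 0.325 (p 0.184) in the authors' deposited table, and its other rows in both tables lay between -0.007 and 0.010. Exon v4 (35222629 to 35222742) was listed in RS3 only, with rows at -0.408 (p 0.357) and -0.265 (p 0.591) in the authors' deposited table. The 132-base form of v7 had 5 RS3 rows between 0.028 and 0.143, all above 0, and RS2 rows at 0.083, 0.372 and -0.052, with none called, in the authors' deposited table.

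**Figure D4:**
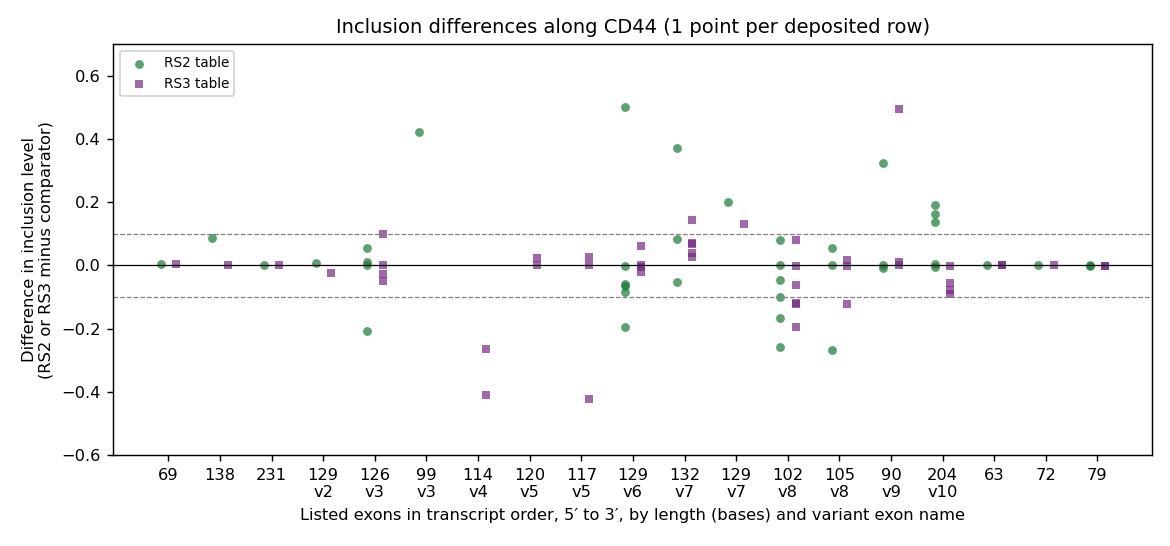
Difference in inclusion level for each deposited row of CD44, with the 19 listed exon forms in transcript order, named by length in bases and, in the variant region, by variant exon, RS2 as circles and RS3 as squares. Constant exons on both sides lie within 0.1 of 0, variant exons reach 0.500 and -0.423, and no row is called.

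Several CD44 exons were listed in more than 1 form with a shared end. The forms of v5 (117 and 120 bases), v7 (129 and 132 bases) and v8 (102 and 105 bases) differ by 3 bases each. Those of v3 (99 and 126 bases) differ by 27. By length alone, these differences would not shift the reading frame. The annotation has the 120-base v5 form in 0 coding transcripts and holds no CD44 exon of 105 bases. In v5 and v7 the additional bases are at the start of the exon and read CAG in the sequences above. In v8 they are at its end. The shorter v7 form (35227662 to 35227790) stood at 0.2 in RS2 (p 0.124) and 0.131 in RS3 (p 0.131) in the authors' deposited table. The longer v8 form (35229652 to 35229756) had 3 rows in each table, from -0.266 to 0.056 in RS2 and from -0.121 to 0.017 for RS3, in the authors' deposited table. The 99-base v3 form (35219695 to 35219793) was listed in RS2 only, at 0.421 (p 0.124), in the authors' deposited table.

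Over all 60 member exons, 33 (55.0%) had a length that is a multiple of 3, beside 41.1% of the 39434 exons of both tables. The share came largely from CD44, where 18 of 19 exon forms had such a length, while 0 of 8 in ITGA3 and 5 of 12 in ITGB5 did. Median length was 123 bases for the members and 120 for all exons. Only the CD47 exons were of 51 bases or fewer.

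CD47 had 2 listed exons, both short and in the tail region of the gene on the minus strand of chromosome 3. The 32-base exon (107770786 to 107770817) stood at -0.264 in RS2 (p 0.260, FDR 1) and at 0 in RS3 (p 1) in the authors' deposited table. The 25-base exon (107769425 to 107769449) was listed in RS2 only, at 0.316 (p 0.707, FDR 1), in the authors' deposited table. Neither length is a multiple of 3, and neither exon was called.

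Exons with a single row in each table can be set side by side without a choice of row. There were 33 such exons among the members. In 25 of them the difference was under 0.1 in size in both tables. It was at least 0.1 in size for 6 of them in RS2 and for 6 in RS3. In 4 it was at least 0.1 in both, namely the shorter CD44 v7 form, the 130-base ITGA6 exon, the 132-base ITGA7 exon and the 108-base ITGAV exon, for which the values are given above. The tables share the comparator library, so a like sign in both is no separate evidence. The same counts over all exons were not made, so the overlap is given as a description only.

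Other adhesion genes gave the setting for these counts. Their lists were chosen with earlier results of these data known, so a share above that of all genes is no test of a list. Of the other integrin subunits, 0 of 11 listed genes were called in RS2 and 0 of 10 in RS3, beside 0.238% and 3.05% of all genes. Their median difference was -0.0005 in RS2 and -0.003 in RS3. Of the members, 1 of 8 genes was called in RS3.

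Adaptors that link integrin tails to actin in focal adhesions had 0 of 34 genes called in RS2, beside 0.238% of all genes. In RS3, 6 of 33 were called (18.2%), 3 lower and 3 higher, beside 3.05% of all genes. A gene counted as called where at least 1 row passed, so a gene with more rows had more occasions to pass. By row, 7 of 251 were called in RS3, beside 0.967% of all rows. The median difference over the rows of these adaptors was 0 in RS2 and -0.001 in RS3. An exon of TLN2, a talin that binds integrin beta tails, fell by 0.250 in RS3 (120 bases, FDR 1.76e-09) and stood at -0.006 in RS2 (FDR 1) in the authors' deposited table. An exon of the zyxin relative TRIP6 rose by 0.122 in RS3 (78 bases, FDR 3.8e-09) and was at 0.051 in RS2 (FDR 0.937) in the authors' deposited table. An exon of ITGB1BP1, which binds the beta 1 tail, fell by 0.139 in RS3 (107 bases, FDR 0.00041) in the authors' deposited table. In RS2 it stood at 0.046 in 1 of its 4 rows and was not called. The 5 RS3 rows of that ITGB1BP1 exon ran from -0.139 to 0.037 in the authors' deposited table.

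Partners of CD44 and the linkers between it and actin had 0 of 13 genes called in RS2 and 2 of 13 in RS3 (15.4%). Over all genes the shares were 0.238% in RS2 and 3.05% in RS3. By row, 3 of 54 rows of this list were called in RS3, beside 0.967% of all rows. In the authors' deposited table NF2, whose product merlin binds the CD44 tail, fell by 0.266 in RS3 at an exon of 45 bases (FDR 0.000189), and ANK1, an ankyrin, rose by 0.238 (FDR 0.034). These exons of NF2 and ANK1 stood at -0.034 and -0.049 in RS2 (FDR 1 for both) in the authors' deposited table. Partners of CD47 and tetraspanins had 0 of 9 and 0 of 10 genes called. Matrix ligands of integrins had 2 of 19 genes called in RS2 (10.5%), FN1 and TNC, and 1 of 20 in RS3 (5.0%), FN1. By row these were 2 of 183 in RS2 and 1 of 196 in RS3, beside 0.0712% and 0.967% of all rows. The FN1 exon of 273 bases, in the gene for fibronectin, an RGD-bearing ligand of several integrins, fell by 0.201 in RS2 and by 0.194 for RS3 in the authors' deposited table. The TNC exon, also of 273 bases, rose by 0.136 in RS2 (FDR 0.00654) in 1 of its 3 rows, which ran from 0.005 to 0.136, and stood at 0.09 in RS3 (FDR 0.504) in the authors' deposited table. Median differences of the CD44, CD47 and ligand lists lay between -0.001 and 0 in both tables.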

How the data were processed

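RNA-seq libraries of 3 samples of BJ fibroblasts, 1 per group, were compared by the authors in 2 deposited tables of exon-skipping events. Reads were aligned with STAR to hg19 after FastQC, per the submitters' processing notes; the event caller is not given in these sources. Per the file headers, each row holds a p-value, its FDR and the inclusion-level difference. The difference is first minus second library; the 4 per-library inclusion columns were looked at once to settle this sign and entered no result, because no label ties them to a sample. Depth per sample is unknown, so no interval is given.

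The 8 genes were matched by symbol and coordinates were written 1-based. An exon is a distinct gene, strand and pair of ends, and counted as called where at least 1 row passed. Events were called at an FDR under 0.05 over the whole table and a difference of at least 0.1. Where an exon has several rows, values come from the row named or as a range. Exon sequences came from GENCODE release 29 transcripts, for exons whose length occurs once in the gene's annotation and whose spacing to the gene's other exons is the same. Coordinates of that annotation were used for this spacing, for coding overlap, for codon and exon numbers and for counts of transcripts. None is printed, and all printed coordinates are those of the deposited events. CD44 variant names follow order and length. The members and gene lists were chosen with earlier results of these data known. Named were all called exons, each member's largest difference per table, exons with a p under 0.05 and a difference of at least 0.1, and up to 3 called genes of each of 5 adhesion lists. ITGBL1, which is no integrin subunit, was left out of the subunit list. The exons of ITGB1 tails, ITGB5 neighbours and other exons named beside these were chosen after their values were seen. Alternatives were other FDR and size limits, a recomputed Benjamini-Hochberg FDR (tested on simulated data) and other ways to treat several rows; a call at an unadjusted p was added after seeing the data. Python 3.11.15, pandas 2.3.3 and SciPy 1.17.1 were used.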

Additional observations from a re-analysis of the deposited data

Results flagged for a closer look

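A pair of exons with a single row in each table lay at least 0.05 from 0 on opposite sides of the comparator, and RS2 was not tested against RS3. The 120-base ITGA7 exon stood at 0.6 in RS2 and -0.082 for RS3 in the authors' deposited table. The 132-base ITGA6 exon stood at 0.057 in RS2 and -0.059 in RS3 in the authors' deposited table. None of these values was called, and each rests on 1 library against the comparator.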

How the results depend on the processing

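With an FDR under 0.01, 0 member rows were called in RS3 in place of 1, and the calls over all rows went from 29 to 19 in RS2 and from 411 to 261 in RS3. With a minimum difference of 0.2, 11 rows were called over all of RS2 and 189 over all of RS3, and the ITGB5 call was kept. With an unadjusted p under 0.05 in place of the FDR and the same minimum difference of 0.1, an alternative chosen after seeing the data, 4 member rows passed in RS2 and 4 in RS3. Over all rows, 901 passed in RS2 (2.21%) and 1693 in RS3 (3.98%). When every row of an exon had to be called, or only exons in a single row were used, 0 member exons were called in RS3 in place of 1, because the ITGB5 exon has 4 rows of which 1 is called. The median over these rows was -0.228 in place of -0.270. A minimum difference of 0.05 and a recomputed Benjamini-Hochberg adjustment left the member counts at 0 in RS2 and 1 in RS3. The median over rows was not run for RS2, where no member exon was called. No paired analysis was possible because each group has 1 library. Unknown depth limits all single differences.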
